A study of Mus musculus with 3 samples.

Results

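A set of 10 genes of neuropeptide, transmitter receptor and channel signalling was followed across 3 culture media in embryonic mouse kidneys: Sst, which encodes the peptide hormone somatostatin, the receptor genes Npffr2, Npy1r, Tacr3 and Htr2b, the transmitter-gated channel genes Gabra3, Gria4 and Grik4, and the potassium channel genes Kcnk2 and Kcnk9. They are 10 of 19938 genes that could be named from the array annotation, and each was read by 1 probe set that carries no other symbol. The 10 were chosen by their difference between the retinoic acid array and the serum-free array, so that difference is a description of them and supports nothing further. All kidneys came from C57BL/6 embryos at embryonic day 11.5 and were kept on Transwell filters for 48 h. The serum group was grown in DMEM with 10% FBS (fetal bovine serum), the serum-free group in DMEM alone, and the retinoic acid group in serum-free DMEM with retinoic acid at an unstated dose. The genotype was the same in all groups, the sex of the embryos and the number pooled are not given, and an explant holds every cell type that came with the dissected organ. Each medium had 1 Affymetrix Mouse Gene 1.0 ST array, so no value below has an error, no difference was tested, and the number of arrays limits the precision.

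Retinoic acid, made from vitamin A, enters the nucleus and binds retinoic acid receptors, which sit on DNA with a retinoid X receptor and switch on genes near their binding sites. In the embryonic kidney it is made mainly by the stroma and is known for keeping Ret expressed in the ureteric bud, the epithelial tree that becomes the collecting ducts. Somatostatin and the ligands of Npffr2, Npy1r and Tacr3 are short peptides cut from larger precursors, and they act on receptors that signal through G proteins. Serotonin does the same at Htr2b, whereas GABA and glutamate open ion channels directly, and the Kcnk channels leak potassium and hold the resting membrane potential.

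Promoter sequence was available from RefSeq for 9 of the 10 genes, in 13 windows of 300 bases (250 before and 50 after a start site, build GRCm38.p6). The 250 bases before the start are shown for Sst and Tacr3, which had the largest difference upward and downward with retinoic acid, and for Htr2b, whose window was the only one of the 13 to hold the retinoic acid receptor hexamer AGGTCA. Each runs 5′ to 3′ along the gene's strand, and capitals mark the motif matches described next. They lie at chr16:23890845-23891094 on the minus strand (Sst), chr3:134828757-134829006 on the plus strand (Tacr3) and chr1:86111981-86112230 on the minus strand (Htr2b).
Sst: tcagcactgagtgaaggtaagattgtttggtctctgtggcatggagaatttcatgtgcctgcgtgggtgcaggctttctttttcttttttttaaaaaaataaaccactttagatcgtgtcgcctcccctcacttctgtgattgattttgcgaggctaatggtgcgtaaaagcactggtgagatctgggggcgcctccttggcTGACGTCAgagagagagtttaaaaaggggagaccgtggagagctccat
Tacr3: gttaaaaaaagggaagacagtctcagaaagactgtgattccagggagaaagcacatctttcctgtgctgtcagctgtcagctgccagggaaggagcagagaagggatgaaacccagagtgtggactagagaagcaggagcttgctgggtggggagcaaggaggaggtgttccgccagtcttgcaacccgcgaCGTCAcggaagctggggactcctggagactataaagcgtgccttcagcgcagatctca
Htr2b: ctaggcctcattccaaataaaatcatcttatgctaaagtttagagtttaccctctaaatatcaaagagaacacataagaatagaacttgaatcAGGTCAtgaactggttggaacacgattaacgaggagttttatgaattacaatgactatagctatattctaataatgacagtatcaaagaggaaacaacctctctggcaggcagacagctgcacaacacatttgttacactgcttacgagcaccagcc

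The capitals in Sst are TGACGTCA, the palindromic cAMP response element for which this promoter is a textbook case, starting 48 bases before the start site. Of all 32851 windows in the table, 1.79% hold these letters. The capitals in Tacr3 are CGTCA, which is the shorter cAMP element TGACG read from the opposite strand, 58 bases before the start. TGACG on either strand is in 20.8% of all windows, and it lies within the palindrome wherever that occurs. Among the 10 genes only the Sst and Tacr3 windows hold it. The AGGTCA of Htr2b starts 157 bases before the start site, and 16.3% of all windows hold that hexamer on either strand.

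Retinoic acid receptors bind best where the hexamer is repeated. The repeats AGGTCANAGGTCA, AGGTCANNAGGTCA and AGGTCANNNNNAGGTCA were in 0 of the 13 windows and in 0.0396%, 0.00913% and 0.00913% of all windows, on either strand. When GGGTCA was also accepted for each hexamer, as were AGTTCA on its own and also GGTTCA, the shares over all windows were 0.222%, 0.268% and 0.0974% for 1, 2 and 5 bases between the repeats, and again 0 of the 13 windows had a match. The same search found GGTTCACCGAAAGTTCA in Rarb, the classical retinoic acid response element of that receptor gene, 53 bases before its start. Only hexamers repeated in the same direction were searched. In Htr2b the AGGTCA is followed directly by tgaact, which is AGTTCA read from the opposite strand. Such inverted pairs were not searched or counted over all windows. A match is only a run of letters, and a missing match says nothing of more distant sequence or of the factor.

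**Figure D1:**
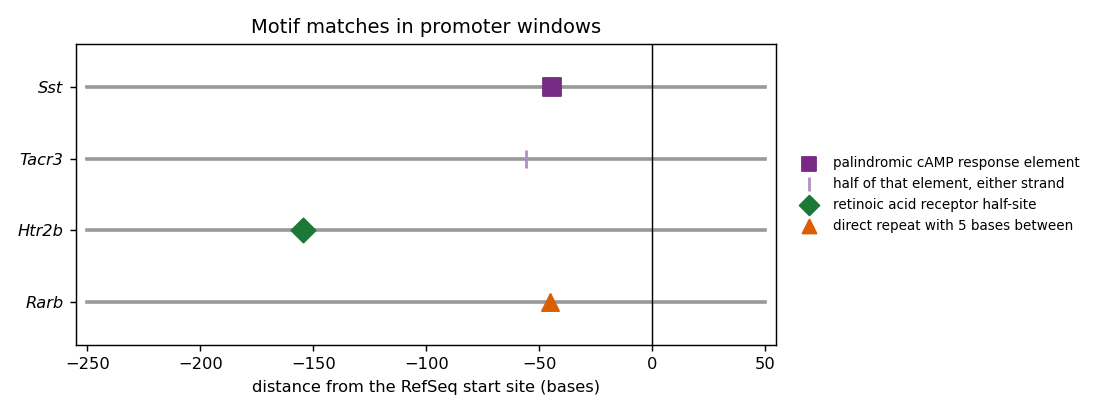
Motif matches in the promoter windows of Sst, Tacr3, Htr2b and, for reference, Rarb; the horizontal axis is the distance in bases from the RefSeq start site (vertical line), and each marker is 1 match at its centre (the shorter cAMP element inside that of Sst is not drawn). The cAMP element of Sst starts at 48 bases and its shorter form in Tacr3 at 58 bases before the start, the hexamer of Htr2b lies farther out at 157 bases, and the repeat of Rarb starts at 53 bases.

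Values are log2 of the deposited probe set intensity. A gene was called higher or lower when it differed at least 2-fold and its higher value was at or above a floor of 7.12, the median over all genes and arrays (intensity 140). Levels of different genes come from different probes and were not set against each other. Each level was instead placed among all genes of its own array, as a percentile. The marker sums given further below do add up different genes, and genes of high signal weigh most in them. At least 2-fold with retinoic acid against serum-free medium, 8 of the 10 genes were higher and 2, Tacr3 and Kcnk9, were lower. Over all 10111 genes at or above the floor in that comparison, 1.05% were called higher and 0.613% lower, and since the 10 were picked from these calls nothing is read from the contrast. The median difference was 2.0 over the 10 genes and 0.00 over all genes. Of the known retinoid targets, Dhrs3 was at 10.83 in serum, 8.73 without serum and 12.05 with retinoic acid, and Rarb at 10.41, 8.43 and 11.37. Cyp26b1, another, did not share the drop without serum, at 6.63, 6.60 and 10.25. Its serum and serum-free values were under the floor, where a drop may not show.

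**Figure D2:**
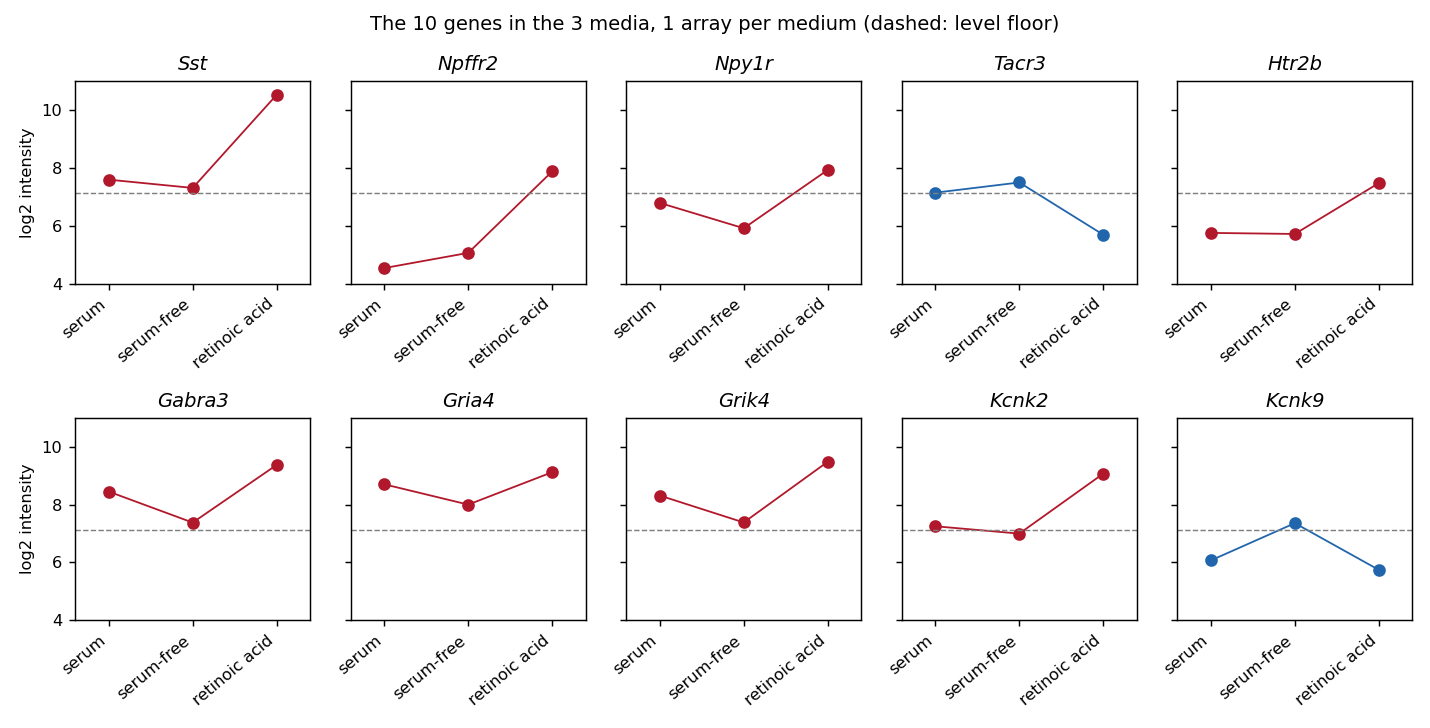
Log2 intensity (vertical axis) of each of the 10 genes on the serum, serum-free and retinoic acid arrays, 1 point per array, with the floor of 7.12 as a dashed line. Red genes were higher and blue genes lower with retinoic acid than in serum-free medium; Sst reaches 10.53 on the retinoic acid array, and Tacr3 and Kcnk9 fall below the floor there.

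The ligand gene had the largest difference of the 10 between retinoic acid and serum-free medium. Sst was at 7.59 in serum, 7.31 without serum and 10.53 with retinoic acid, which are intensities of 193, 158 and 1470. The retinoic acid array stood far above the others, which differed from each other by 0.29. Sst was 9.32-fold higher with retinoic acid than without and 7.64-fold higher than in serum, and it moved from the 52.3 percentile of the serum-free array to the 93.8 percentile of the retinoic acid array. Among genes at or above the floor it had the fifth largest increase against serum-free medium and the third largest against serum. The receptor genes through which somatostatin acts, Sstr1 to Sstr5, were all under the floor on all 3 arrays, the highest being Sstr4 at 6.53, 6.53 and 6.65. Cort, which encodes the related peptide cortistatin, was also under the floor, at 6.33, 6.37 and 6.37. Thus 1 of the 7 genes of the somatostatin list was called, and the median difference of the list was 0.00.

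The peptide receptor genes went both ways. Npffr2, which encodes a receptor for neuropeptide FF, a peptide that modulates pain and opioid action, was at 4.54 in serum, 5.06 without serum and 7.88 with retinoic acid. Only the retinoic acid value lay above the floor, and the gene climbed from the 22.2 to the 60.1 percentile. The difference was 2.82 against serum-free medium and 3.34 against serum, the second largest increase in the latter comparison among genes at or above the floor. Because both low values lie deep in the range where background makes up much of the signal, the size is uncertain, and with 32 added to the intensities the differences were 2.03 and 2.28. The ligand gene Npff was under the floor at 6.57, 6.71 and 6.71, and the second receptor gene, Npffr1, at 6.01, 6.21 and 6.01. Of the 10 genes of the RFamide peptides and their receptors, only Npffr2 was called, and only Npffr2 reached the floor on any array.

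Npy1r encodes the Y1 receptor, through which neuropeptide Y constricts vessels and stimulates appetite. It was at 6.79 in serum, 5.91 without serum and 7.93 with retinoic acid, so that only the retinoic acid array was above the floor and the serum-free array was lowest. The increase with retinoic acid was 4.04-fold against serum-free medium and 2.20-fold against serum. Against serum it was 0.95 with 32 added to the intensities, which ends that call. The ligand gene Npy was above the floor on every array, at 8.09, 7.84 and 7.86. Pyy, the ligand gene of gut endocrine cells, was just under it at 7.09 throughout. The other receptor genes of the family, Npy2r, Npy4r, Npy5r and Npy6r, lay between 3.36 and 5.0 and were each exactly equal on all arrays. Dpp4, whose enzyme trims neuropeptide Y and peptide YY, had values of 7.94, 7.67 and 7.05, a difference of -0.62 with retinoic acid that was not called.

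Tacr3, which encodes the receptor of neurokinin B, was at 7.14 in serum, 7.49 without serum and 5.69 with retinoic acid. Here the retinoic acid array was the low one and fell under the floor, from the 54.9 to the 31.2 percentile. The decrease was 3.50-fold against serum-free medium and 2.74-fold against serum, and serum and serum-free differed by 0.35. Its ligand gene Tac2 was equal on all arrays at 5.94, under the floor, as were the other tachykinin genes Tac1 at 4.08 and Tac4 at 5.10. Tacr1, the receptor gene of substance P, was at 5.54, 5.73 and 5.54, and Tacr2 at 5.14 on every array. Mme, which encodes the peptidase neprilysin that degrades tachykinins, was the only other gene of this list above the floor, at 9.35, 8.88 and 9.11.

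The amine receptor gene Htr2b encodes a serotonin receptor that signals through Gq and is known for its role in heart development. It was at 5.75 in serum, 5.72 without serum and 7.47 with retinoic acid. The serum and serum-free arrays were nearly alike, 0.04 apart, and the retinoic acid array alone exceeded the floor. The increase was 3.38-fold against serum-free medium and 3.30-fold against serum. Of the 20 genes of the serotonin list, only 2 reached the floor on at least 1 array and could be called. Htr2b was the only one called, and the list had a median of 0.00. The closely related receptor genes Htr2a at 6.88, 6.79 and 6.88 and Htr2c at 4.82 on every array stayed under the floor. So did Tph1 and Tph2, whose enzymes begin serotonin synthesis, at 4.74 and 4.62, and the uptake transporter gene Slc6a4 at 5.66. Maoa, which encodes an enzyme that breaks serotonin down, was above the floor at 8.33, 8.38 and 8.19.

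The transmitter-gated channel genes were above the floor on every array and shared one order, lowest without serum and highest with retinoic acid. Gabra3, which encodes the alpha3 subunit of the GABA-A receptor, was at 8.45 in serum, 7.38 without serum and 9.37 with retinoic acid. None of the other 9 genes was called lower in serum-free medium against serum, where Gabra3 was 2.10-fold lower (-0.94 with 32 added to the intensities, which ends that call), and it was 3.98-fold higher with retinoic acid than without. Against serum the increase was 0.92, which was not called. Of the other alpha subunit genes, Gabra4 was at 7.42, 7.19 and 7.59, while Gabra5 was under the floor at 5.47, 5.19 and 6.15. Gabrb2, a beta subunit gene needed for a working receptor, was at 7.49, 7.52 and 7.69. The GABA-making enzyme genes Gad1 and Gad2 stayed between 4.78 and 5.77. Gabra3 was the only called gene of the 23 measured on this list, of which 6 reached the floor on at least 1 array.

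Grik4 encodes a kainate receptor subunit that forms channels only together with subunits of the Grik1 to Grik3 group. It was at 8.31 in serum, 7.38 without serum and 9.48 with retinoic acid, moving from the 53.3 percentile without serum to the 83.2 percentile with retinoic acid. The increase was 4.29-fold against serum-free medium and 2.25-fold against serum, and the decrease without serum, -0.93, was not called. Its partner genes were under the floor on every array, with Grik1 at 5.38 and Grik3 at 6.06 throughout and Grik2 at 6.65, 6.43 and 6.70. Grik5, the other gene of the Grik4 kind, was above the floor at 8.93, 9.03 and 8.94.

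Gria4, which encodes the GluA4 subunit of AMPA receptors, was at 8.70 in serum, 8.0 without serum and 9.12 with retinoic acid. Its difference of 1.12 against serum-free medium was the smallest of the 10, and it stood only 0.42 above serum, which was not called. Gria1 was under the floor at 6.15, 5.86 and 6.64, Gria2 at 5.54, 5.67 and 5.67, and Gria3 was above it at 9.12, 9.08 and 9.08. Among 26 measured genes for ionotropic glutamate receptors and their auxiliary proteins, 11 reached the floor on at least 1 array. With retinoic acid against serum-free medium 2 were called higher, both of them already among the 10, and 1 was called lower. The latter was Cacng3, which encodes an auxiliary subunit that carries AMPA receptors to the membrane, at 6.63 in serum, 7.56 without serum and 6.06 with retinoic acid.

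The potassium channel genes belong to the tandem-pore family, whose members each have paired pore loops in one chain, and these moved in opposite directions. Kcnk2 encodes TREK-1, a channel opened by stretch, heat and lipids. It was at 7.25 in serum, 7.0 without serum and 9.07 with retinoic acid, with only the retinoic acid array clearly raised. The increase was 4.21-fold against serum-free medium and 3.53-fold against serum. Kcnk9 encodes TASK-3, a channel closed by acid. It was at 6.07 in serum, 7.36 without serum and 5.74 with retinoic acid, so that the serum-free array was the high one and the only one above the floor. Kcnk9 was 2.44-fold higher without serum than with it and 3.06-fold lower once retinoic acid was added, and it ended 0.33 below serum. With 32 added to the intensities the difference between serum-free medium and serum was 0.98, which ends that call. Of the other 12 tandem-pore genes measured, 0 were called with retinoic acid. Of all 14 measured, Kcnk2 and Kcnk9 included, 6 reached the floor on at least 1 array. TASK-1, a close relative of TASK-3, is encoded by Kcnk3, which was at 7.34, 7.54 and 7.59, and the TREK relatives Kcnk10 and Kcnk4 stayed under the floor, at 5.63, 5.44 and 5.63 and at 5.89, 6.13 and 6.13.

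**Figure D3:**
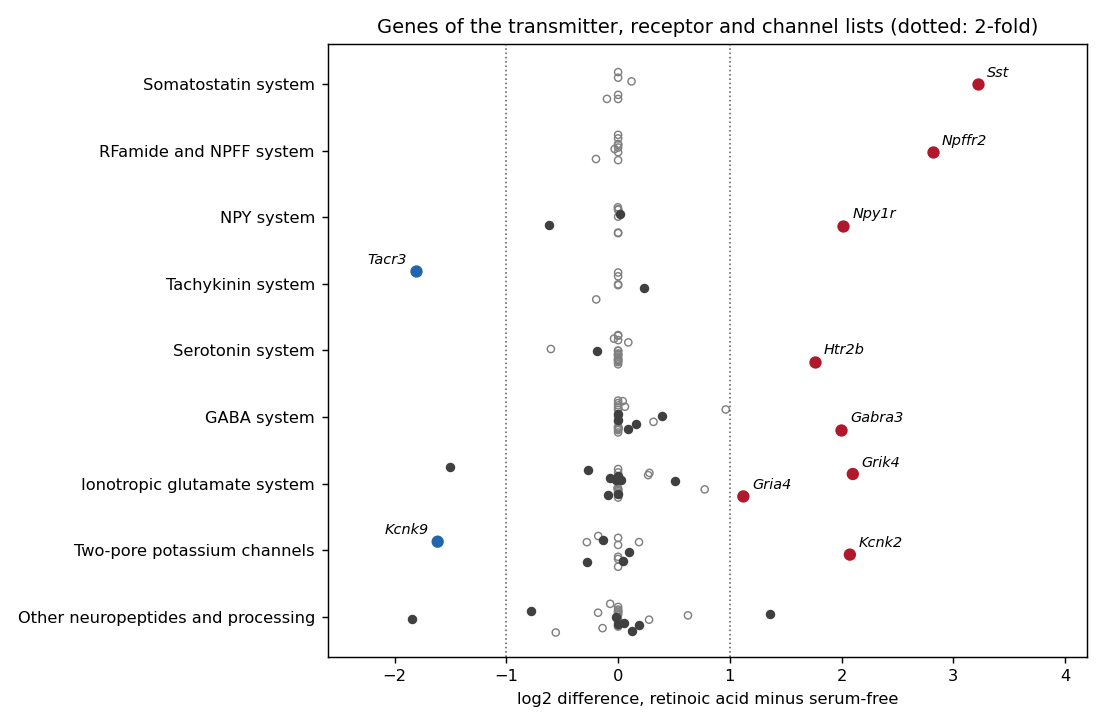
Log2 difference between the retinoic acid and serum-free arrays (horizontal axis) for each measured gene of 9 lists of transmitter, receptor and channel genes (rows; vertical jitter only separates points). Red and blue points are the 10 genes described, filled grey points other genes at or above the floor on at least 1 array and open points genes under it on all arrays; most other genes sit at or near 0, and 3 of them lie beyond 2-fold.

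Across the 9 lists together, 140 genes were measured, of which 130 were not among the 10. With retinoic acid against serum-free medium 30 of the 130 reached the floor, 1 was called higher and 2 lower. Over all genes at or above the floor the shares were 1.05% and 0.613%. The median difference of the 130 was 0.00, and most of the 130 were under the floor. The gene called higher was Adcyap1, which encodes the neuropeptide PACAP, at 7.09 in serum, 5.97 without serum and 7.33 with retinoic acid. Those called lower were Cacng3 and Chga, the gene of the granule protein chromogranin A, which was at 8.13, 9.45 and 7.61. The 10 are therefore not every gene of this kind that passed the size rule. Just outside it on the upper side were Gabra5 at 0.96 and Gria1 at 0.77, both under the floor, against 1.12 for Gria4 just inside. On the lower side the nearest was Cartpt, the gene of an appetite-suppressing peptide, at -0.78. Just inside on that side were Cacng3 at -1.50 and, among the 10, Kcnk9 at -1.61. Exact equality between arrays is common in such values, with 51.6% of all genes equal in serum-free medium with and without retinoic acid, and it does not measure equal expression.

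**Figure D4:**
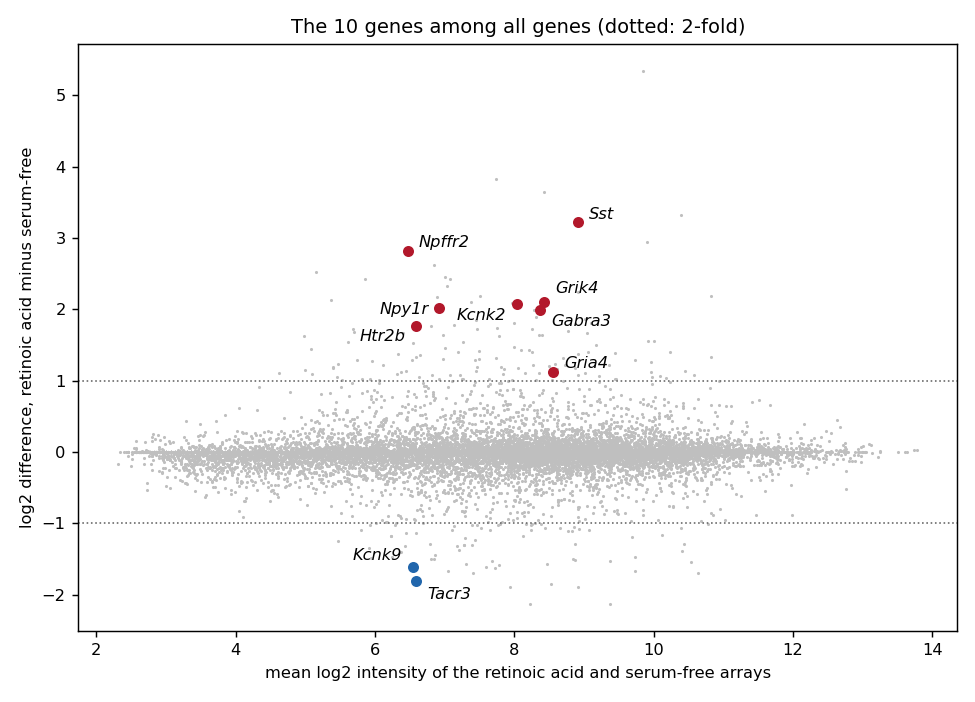
Each grey point is 1 of 19938 genes, placed by its mean log2 intensity on the serum-free and retinoic acid arrays (horizontal axis) and by the log2 difference between them (vertical axis); dotted lines mark 2-fold. The 8 red genes lie between 1.12 and 3.22 and the 2 blue genes at -1.61 and -1.81, and Npffr2, Npy1r, Htr2b, Tacr3 and Kcnk9 lie at mean levels under the floor of 7.12.

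The remaining comparisons share an array with the one that chose the genes, so they are given side by side and not as separate support. In serum-free medium against serum, 1 of the 10 genes was called higher (Kcnk9) and 1 lower (Gabra3), beside 0.876% and 0.699% of all 10156 genes at or above the floor. The 8 genes that were higher with retinoic acid ranged there from -1.07 (Gabra3) to 0.53 (Npffr2), with a median of -0.49. With retinoic acid against serum, 6 were called higher (Sst, Npffr2, Npy1r, Htr2b, Grik4 and Kcnk2) and 1 lower (Tacr3), beside 1.04% and 0.816% of all 10169 genes at or above the floor. The other genes, Gabra3, Gria4 and Kcnk9, were within 2-fold of their serum values. By the order of the arrays, 7 genes ran from serum-free through serum to retinoic acid, Npffr2 ran from serum through serum-free to retinoic acid, and Tacr3 and Kcnk9 ran from retinoic acid through serum to serum-free. Of all 106 genes called higher with retinoic acid, 78 had the same order as the 7, and of the 62 called lower 43 had the same order as Tacr3 and Kcnk9.

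Within these orders the shapes differed. Npy1r and Grik4 were closest to each other, with a Euclidean distance of 0.06 between their log2 values over the 3 arrays after each gene's mean was removed, and Gabra3 lay within 0.18 of both. These 3 genes combined a drop without serum of 0.88 to 1.07 with a gain of 1.99 to 2.10 on retinoic acid. Htr2b and Kcnk2, at a distance of 0.23, differed little between serum-free medium and serum, by -0.04 and -0.25. Sst and Npffr2 had the largest gains and lay 0.57 apart.

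By the same distance, over 10032 named genes at or above the floor on at least 1 array, the gene most like Sst was Cyp26b1, which encodes an enzyme that clears retinoic acid, at 0.49, followed by Npffr2 and by Lrrc7 at 0.67. Npffr2 was next to Sst, Cyp26b1 at 0.60 and Ccl6 at 0.76. Grik4 and Npy1r shared their next neighbours, Spon2 and Iigp1, at 0.07 and 0.10 from Grik4, and Gabra3 had Il33 at 0.18. Nearest to Htr2b were AI593442 at 0.06, Arhgap20 at 0.13 and Edil3 at 0.13, and nearest to Kcnk2 were Hpca at 0.17 and AI593442 at 0.22. Gria4 lay nearest to Rpp25 at 0.03, Smim41 at 0.04 and the Y-linked gene Uty at 0.04. Tacr3 lay nearest to Emp1 at 0.16, Lum at 0.17 and Cldn1 at 0.20, and Kcnk9 to Lilr4b at 0.14, Chga at 0.18 and Actn3 at 0.22. With 3 arrays many genes come close by these distances, and they are a description only.

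Kidney markers were present on every array, with 7 of 7 nephron progenitor, 7 of 7 ureteric bud and 6 of 6 renal stroma genes at or above the floor. Genes of cell types that carry peptides and channels also differed between the arrays. In bulk tissue, fewer cells of a type and less RNA per cell cannot be told apart. Of 12 measured markers of sympathoadrenal cells, the catecholamine-making cells of the sympathetic nervous system and adrenal medulla, 11 had differences below 0 with retinoic acid against serum-free medium and 5 were called lower. Their summed intensity was 3418 in serum, 4551 without serum and 2494 with retinoic acid, and 6, 9 and 5 of them were at or above the floor. Gata3, at 10.63, 10.49 and 10.02, weighed most in that sum on every array. The called genes were Dbh at -2.13, Chga at -1.85, Th at -1.5, Hand1 at -1.38 and Slc18a1 at -1.29. The sum of the 12 ran in the same order as Tacr3 and Kcnk9, also without Chga, its most changed gene by intensity (3139, 3850 and 2300). This order was not particular to these cells. The nephron progenitor sum (9929, 11290 and 8572) shared it. So did the neuroendocrine sum (703.3, 1269 and 645.5), though not without Chga (423.9, 567.7 and 450.6). The part of any of these lists in the differences of Tacr3 and Kcnk9 was not tested.

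Markers of neurons did not follow that order. Their summed intensity over 12 genes was 3905 in serum, 5208 without serum and 7111 with retinoic acid, and 1 was called higher with retinoic acid, Stmn2, which encodes a microtubule regulator of growing axons, at 1.33. The median of that list was 0.05, with 6 differences above 0 and 5 below. Of 6 measured markers of glia and Schwann cells, 2 were at or above the floor, Fabp7 and Erbb3, and 0 were called. Of 7 neuroendocrine markers, 2 were at or above it, Chga and Insm1. Stmn2 made up most of the step in the sum from serum-free medium to retinoic acid, with an intensity of 1137 on the former array and 2867 on the latter, and the other 11 genes summed to 3041, 4071 and 4244. The part of neuron markers in the differences of the 10 genes was not tested.

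Ureteric bud markers had summed intensities of 8347, 4061 and 8740 in the same order of media, lowest without serum as in 7 of the 10 genes. Emx2 alone of the 7 markers had a difference below 0 with retinoic acid against serum-free medium, at -0.34. With retinoic acid against serum-free medium 2 of 7 were called higher, Calb1 at 2.18 and Ret at 1.5. Without Calb1 the sums were 5090, 3213 and 4896, still lowest without serum, but with the retinoic acid sum below the serum sum. Renal stroma markers summed to 9125, 8093 and 13260, but the matrix gene Ecm1, the 1 of 6 called, at 5.34, carried the rise, and the other 5 genes summed to 8104, 7949 and 7407. The nephron progenitor sum was 9929, 11290 and 8572, with Cited1 called lower at -2.13 and Meox1 called higher at 1.81. Macrophage markers summed to 2623, 7951 and 5534, with Cd68 at -1.16 and Mrc1 at -1.02 called lower with retinoic acid. Smooth muscle markers summed to 7806, 2744 and 1100, with Acta2 at -1.39 and Tagln at -1.32 called lower. Endothelial markers summed to 3985, 6324 and 4964, and 0 of 6 were called. The sums without 1 gene were added after the data were seen. The part of these lists in the differences of the 10 genes was not tested, and the arrays do not tell which cells held the transcripts.

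**Figure D5:**
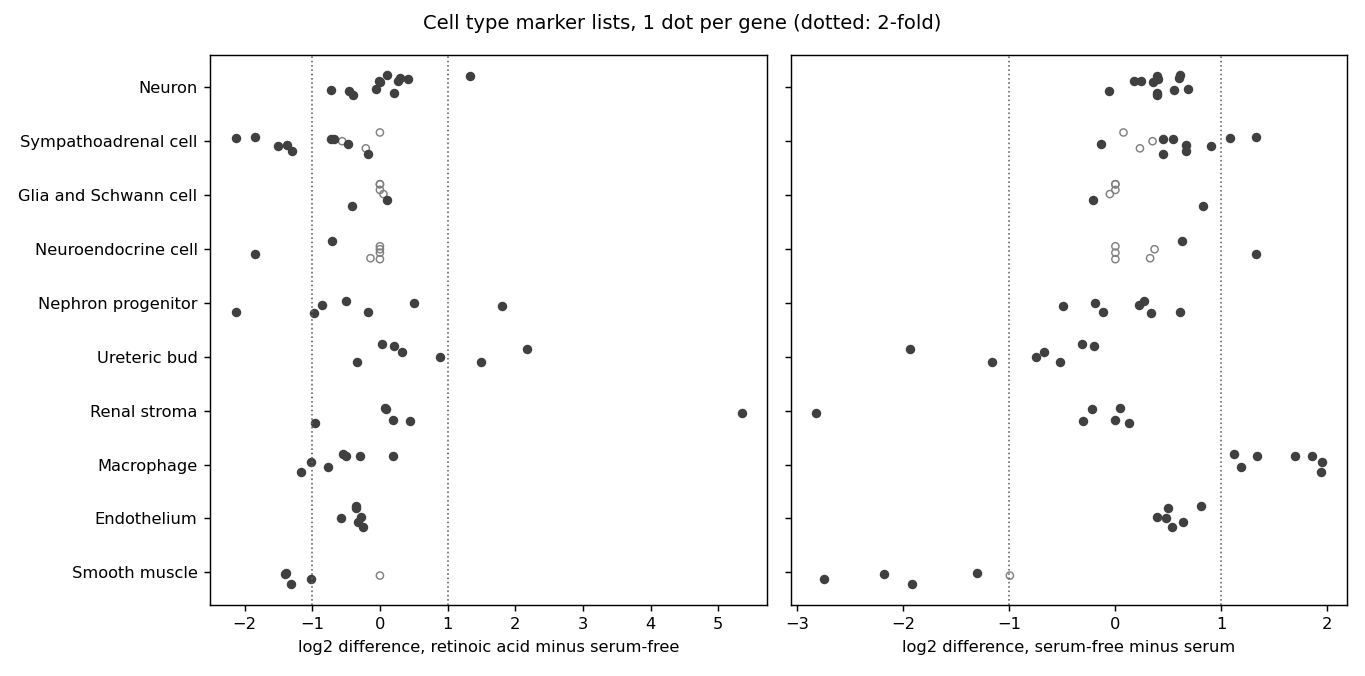
Log2 differences of the marker genes of 10 cell types (rows, 1 dot per gene; filled dots reach the floor on at least 1 array), retinoic acid minus serum-free on the left and serum-free minus serum on the right, with 2-fold as dotted lines. On the left 11 of 12 sympathoadrenal genes lie below 0, the neuron genes lie on both sides of it, and 6 of 7 ureteric bud genes lie above it.

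Sex-linked transcripts differed as well. Xist, the transcript that silences an X chromosome in females, had values of 10.84 in serum, 11.48 without serum and 9.79 with retinoic acid, and the Y-linked genes Eif2s3y (8.38, 7.46 and 8.64), Kdm5d (7.74, 7.21 and 8.40) and Uty (7.93, 7.29 and 8.38) ran in the order that 7 of the 10 genes share. The sex of the embryos and the medium cannot be told apart for these arrays. Of the 10 genes only Gabra3 is X-linked. Over 739 X-linked genes the median difference with retinoic acid against serum-free medium was 0.00, and of the 326 at or above the floor 2 were called higher, Gabra3 included, and 4 lower.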

How the data were processed

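RNA (250 ng) of kidney explants from 3 media was hybridised to 1 array each. The deposited numbers are linear probe set intensities, made with Affymetrix Expression Console 1.1 and RMA per the submitters' processing notes, with settings not given in the sources used here. RMA subtracts background, equalises arrays by quantiles and summarises probes by median polish, which can return equal values for several arrays and understate small differences. Of 35556 probe sets, 21789 carried 1 gene symbol, 1621 several and 12146 none in the table used here. A gene with several probe sets kept the probe set of highest mean over the arrays. The log2 of the deposited intensity was used with no pseudocount and no further scaling, in Python 3.11.15 with limma 3.58.1 for cyclic loess. Calling rested on size alone (2-fold, floor 7.12). The procedure was also run on simulated data whose changes exceeded the cut in genes above the floor. That run checks the code, not genes near the cut or the floor. The members, lists and rules were chosen with earlier results of these data known. Named by rule were the members, list genes called with retinoic acid, cell type markers and the 3 nearest neighbours of each member; the ligands, receptors and enzymes given beside them were chosen after their values were seen. Genes of the lists that were not measured under their own symbol (13) were not analysed here. Alternatives were an added intensity of 32, cyclic loess, median centring, the mean of probe sets, other floors and 1.5-fold. Protein sequences were not used here.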

Additional observations from a re-analysis of the deposited data

How the results depend on the processing

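With 1 array per medium, no replicate could be left out. No paired analysis was possible because each group has 1 array and the result comes from no test. Cyclic loess, median centring and no floor left all 6 counts of called genes as they were. The mean of all probe sets of a gene could not change a value of the 10 genes, since each has 1 probe set, and shows nothing about stability. None of the other 6 alternatives turned the sign of a called difference of the 10 genes. Most of them could not, since another floor or fold leaves the differences as they are and an added constant keeps their sign. Median centring only shifts all genes alike, so cyclic loess alone could move single genes. With the floor at the 75th percentile, 5 genes were called higher and 0 lower with retinoic acid against serum-free medium, 0 and 0 in serum-free medium against serum, and 3 and 0 with retinoic acid against serum; this alternative tests fewer genes, and Npffr2, Npy1r, Htr2b, Tacr3 and Kcnk9 did not reach that floor. With 32 added to the intensities, which by construction shrinks differences at low level, 0 genes were called higher and 0 lower in serum-free medium against serum. At 1.5-fold, 3 were called lower in that comparison. The lowest and highest differences over the settings with retinoic acid against serum-free medium were 2.99 and 3.23 for Sst, 1.03 and 1.13 for Gria4, -1.81 and -1.35 for Tacr3 and -1.62 and -1.20 for Kcnk9. Low signal limits the size of the differences of the genes that lie under the floor on 1 or more arrays.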

Other observations

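Wider families were counted by symbol prefix, a choice made after the data were seen. Of 90 potassium channel genes (Kcn) outside the 10, 18 were at or above the floor in retinoic acid against serum-free medium and 0 were called in that comparison. Kcne3, which encodes an auxiliary potassium channel subunit, was called lower in serum-free medium against serum and in retinoic acid against serum, with values of 8.15 in serum, 6.91 without serum and 5.97 with retinoic acid. Of 102 other ion channel genes, 28 were at or above the floor in retinoic acid against serum-free medium, and Cacng3 was the only one called there.

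The nicotinic receptor genes Chrna3 and Chrnb4, neighbours in the genome whose subunits form the main acetylcholine receptor of autonomic ganglia, were called higher with retinoic acid against serum. Chrna3 was at 7.52, 8.09 and 8.69 and Chrnb4 at 5.93, 6.48 and 7.21 in serum, serum-free medium and retinoic acid. Among 38 further peptide receptor genes, 6 were at or above the floor in each comparison with serum. Of these Ntsr1, a neurotensin receptor gene, stood 1.13 above its serum value on the retinoic acid array. Oxtr, the oxytocin receptor gene, differed by -1.18 without serum, at 7.32 and 6.14. None of 29 receptor genes for adrenaline, dopamine, histamine, muscarinic acetylcholine signals and trace amines reached the floor in any of the 3 comparisons.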
